A study of Arabidopsis thaliana with 12 samples.

Results

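VAL2 and its close relative VAL1 are transcriptional repressors of plants with a B3 domain, which binds the RY element, a short DNA sequence with the core TGCATG. They are known for shutting off the embryo and seed maturation programme when seedlings start to grow, and they are linked to Polycomb repressive complex 2 (PRC2), the enzyme complex that trimethylates lysine 27 of histone H3 (H3K27me3). This mark spreads over whole genes as domains and is a hallmark of genes held silent. The sites of VAL2 were set here against the domains of H3K27me3 in wild type: how many VAL2 sites lay inside a domain, how this share changed with the strength of VAL2 binding, how far the others lay from a domain edge and from gene starts, and which genes were involved.

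The peak lists came from ChIP-seq, the sequencing of DNA that is pulled down with a chromatin protein or mark, in 14-day-old Arabidopsis thaliana seedlings of the Col-0 ecotype, grown at 22 °C with 16 h of light and 8 h of dark. VAL2-GFP, precipitated through its tag from plants that carried the val2 mutation, gave 1 peak list. It was compared with 2 lists of H3K27me3 from Col-0 wild type. Lists of VAL1-GFP in val1 plants (n = 2) and of H3K27me3 in the val1val2 double mutant (n = 2) were used beside them. The list of a second VAL2-GFP sample, the inputs and the RNA-seq were not analysed here. The labels do not give the promoter of each tagged gene or the number of transgenic lines, nor whether replicates came from separate plants. Whole seedlings mix many cell types, so that VAL2 and H3K27me3 at 1 locus may come from different cells.

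A peak of the VAL2 list could hold several summits, the positions of highest coverage, and each summit was counted as 1 VAL2 site. The list had 30493 summits in 20275 peaks, among 123225 entries in the 7 lists together. Pileup, the authors' read coverage at the summit, ran from 18 to 399 with a median of 29, and the authors' fold enrichment over the local background ran from 1.29 to 24.0 with a median of 1.95. The list reached down to weak peaks, since 54.4% of the summits had a −log10 q of at least 2. The 2 Col-0 lists held 8324 and 8325 H3K27me3 peaks. Stretches covered in both lists over 200 bp or more were taken as domains. The 8155 domains had a median length of 1701 bp and a range from 200 to 10080 bp, and they took up 16.4 Mb, or 13.7% of the 5 nuclear chromosomes. Read depth per sample is unknown. With a single VAL2 list no difference has a replicate check on the VAL2 side, so no p-value is given, and the 95% intervals (Clopper-Pearson) cover counting error only.

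The sequences around a few summits show what the counts below rest on. Each line gives 60 bases of the plus strand of TAIR10, 5′ to 3′, from the RefSeq copy of the genome, with the RY core nearest to the summit in capitals (TGCATG, or CATGCA where the core is on the minus strand). The bases are placed around that core, or around the summit where no core is within 100 bp. At WRKY75 the summit, at position 4151639 of chromosome 5, lies just outside the bases shown. The summits of the first set lie inside H3K27me3 domains, at genes of the seed programme, at WRKY75 and at NAC074, whose summit was among the strongest of the list.
NAC074 at chr4:14091380-14091439: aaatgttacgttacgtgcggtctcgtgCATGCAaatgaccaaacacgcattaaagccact
OLEO1 at chr4:12900278-12900337: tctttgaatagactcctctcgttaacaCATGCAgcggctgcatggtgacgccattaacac
SESA3 at chr4:13611690-13611749: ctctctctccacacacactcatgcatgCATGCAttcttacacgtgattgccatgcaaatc
DOG1 at chr5:18591863-18591922: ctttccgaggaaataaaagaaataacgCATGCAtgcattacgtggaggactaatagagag
AGL15 at chr5:4451028-4451087: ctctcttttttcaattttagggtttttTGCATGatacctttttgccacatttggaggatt
WRKY75 at chr5:4151575-4151634: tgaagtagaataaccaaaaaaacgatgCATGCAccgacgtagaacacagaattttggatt

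The second set lies just outside the edge of a domain that covers the gene itself.
SESA1 at chr4:13607223-13607282: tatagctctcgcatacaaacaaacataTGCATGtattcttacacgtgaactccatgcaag
OLEO3 at chr5:20819982-20820041: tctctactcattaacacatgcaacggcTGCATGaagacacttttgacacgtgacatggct

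The third set lies more than 1 kb from every domain and shows that the same core stood at strong VAL2 summits of unmarked genes.
PETC at chr4:1439873-1439932: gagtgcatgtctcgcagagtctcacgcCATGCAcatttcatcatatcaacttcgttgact
FIB at chr4:1931754-1931813: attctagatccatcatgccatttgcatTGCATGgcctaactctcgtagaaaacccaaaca

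The fourth set shows summits of the top decile without any RY core within 100 bp, and has no capitals.
AP1 at chr1:25986456-25986515: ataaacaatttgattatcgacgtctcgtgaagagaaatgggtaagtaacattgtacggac
GAPC1 at chr3:1080753-1080812: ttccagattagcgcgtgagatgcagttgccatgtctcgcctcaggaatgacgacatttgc

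Most VAL2 summits lay outside H3K27me3 domains. Of the 30493 summits 3980, or 13.1%, were inside a domain (interval 12.7% to 13.4%), against 13.7% of the chromosomes' bases. When each Col-0 list was used alone, 14.3% of the summits lay in a peak of replicate 1 and 14.5% in a peak of replicate 2, a mean of 14.4% ± 0.174 (SD, n = 2). Per megabase there were 243 summits inside domains and 258 outside. On the 5 chromosomes the share inside ran from 11.7% to 14.2%, beside 12.7% to 14.9% of their bases in domains.

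The share inside fell with pileup and then turned up again at the strongest sites. For this the summits were ranked by pileup into 10 classes, called deciles although equal values were kept together, which left between 1698 and 3841 summits in each. Decile 1, with a pileup of 18 to 22, had 663 of 3773 summits inside, or 17.6% (16.4% to 18.8%). From decile 2 to decile 7 the shares were 16.5%, 14.7%, 14.9%, 13.2%, 12.6% and 11.2%. Decile 8, with a pileup of 36 to 39, had the lowest share at 8.76% (7.70% to 9.93%), and decile 9 had 8.88%. In decile 10, with a pileup of at least 49, 364 of 3031 summits lay inside, or 12.0% (10.9% to 13.2%). The intervals of deciles 8 and 10 do not overlap, and those of deciles 1 and 10 do not either. By replicate 1 and replicate 2 of Col-0 alone, decile 10 had 13.0% and 14.1% inside and decile 8 had 9.94% and 10.1%, so the difference between these deciles was larger than the difference between the Col-0 replicates. When only VAL2 summits with a −log10 q of at least 10 were kept and ranked anew, 25.4% of the new decile 10 and 12.7% of the new decile 1 lay inside. All summits kept had a pileup of at least 45, so the new decile 1 was not the weak class above.

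The upturn came from the very top of decile 10. Of the 100 summits with the highest pileup 32, or 32.0%, lay inside a domain (23.02% to 42.1%). For ranks 101 to 500 the share was 19.8%, for ranks 501 to 1000 it was 14.0%, for ranks 1001 to 2000 it was 8.40%, and for the next 1000 it was 9.70%. By significance, taken from a column whose header is damaged and which was read as −log10 q by its place, summits with a −log10 q of 5 to 10 had 9.25% inside, those of 20 to 50 had 17.3%, and those of 50 or more had 21.6%. Not all of the highest summits stood out from their surroundings. Of the first 100, 10 had a fold enrichment below 2.5 and no RY core, and 7 of these 10 were inside domains, at positions 3476 and 10002 of chromosome 2 and in a stretch of chromosome 3 between positions 14196041 and 14201607. They include the highest pileup of the list (399, fold enrichment 1.93, chromosome 2 position 10002). Without them 25 of 90 summits, or 27.8% (18.9% to 38.2%), lay inside, and 89 of these 90 had an RY core. In decile 10 as a whole 41 summits had a fold enrichment below 2.5, of which 7 had an RY core, and without these 41 its share was 11.9%.

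VAL1 summits lay inside the same domains more often over all summits and among the strongest ones. Over all summits the share was 13.1% for VAL2, against 26.99% and 17.2% in the 2 VAL1-GFP lists. In decile 10 it was 12.0% for VAL2, against 31.8% and 25.6% for VAL1. With equal numbers of the strongest summits, 22.2% of 500 VAL2 summits were inside, against 37.6% and 36.8% for VAL1, and 12.1% of 3000 VAL2 summits, against 30.4% and 26.3% for VAL1. The value of VAL2 was below both VAL1 values in each of these 4 settings and lay farther from the nearer one than the VAL1 replicates lay from each other for all of these except the share over all summits. Among weak summits VAL1 replicate 2 was close to VAL2, with 17.9% against 17.6% in decile 1 and 16.46% against 16.49% in decile 2. The GFP lists came from different tagged lines and their depth is unknown, and 1 list against 2 allows no test of the difference.

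**Figure D1:**
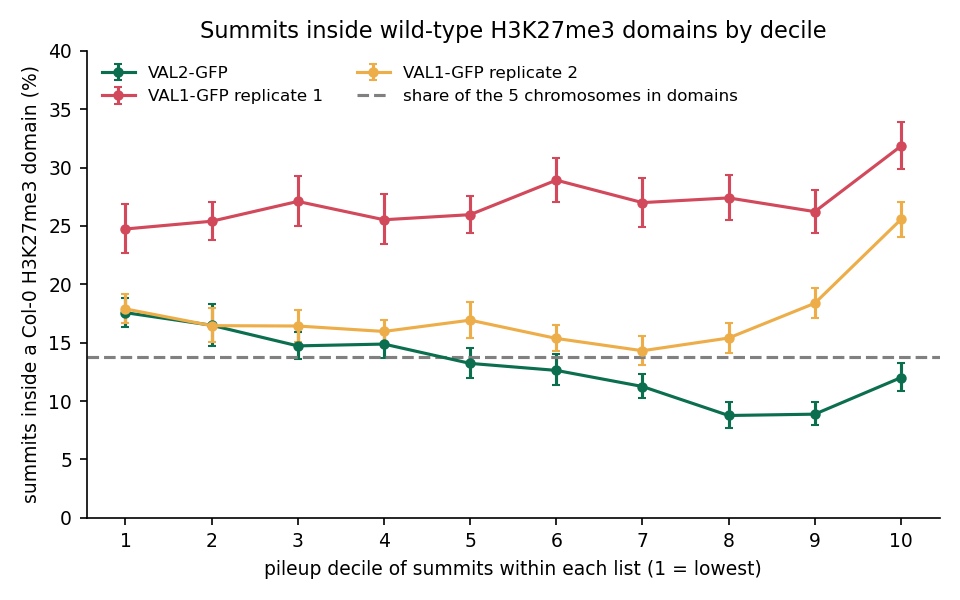
Share of summits inside a Col-0 H3K27me3 domain (y axis, percent) by pileup decile within each list (x axis), for the VAL2-GFP list and the 2 VAL1-GFP lists. Bars are 95% Clopper-Pearson intervals for counting error, and the dashed line is the share of the chromosomes in domains, 13.7%. VAL2 falls to 8.76% in decile 8 and is at 12.0% in decile 10, below both VAL1 lists there.

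Sites of the top decile gathered just outside domain edges rather than within domains. Decile 10 summits had a density of 22.2 per Mb inside and 25.95 per Mb outside, but outside the density depended on the distance to the edge. It was 54.4 per Mb within 250 bp of an edge, 68.2 from 250 to 500 bp, 53.8 from 500 bp to 1 kb, 30.9 from 1 to 2 kb, 24.5 from 2 to 5 kb, 22.5 from 5 to 10 kb and 13.1 beyond 10 kb. Just inside the edge, within 250 bp, it was 24.7 per Mb, and deeper in it ranged from 15.2 to 26.1. Thus the 250 bp on either side of an edge held 97 decile 10 summits inside and 222 outside. All summits together showed a like profile, with 472, 547 and 462 per Mb in the 3 rings nearest outside. Protein-coding gene starts were also dense there, with 537, 374 and 250 per Mb in the same rings and 161 beyond 10 kb, and their part in the VAL2 profile was not tested. VAL2 summits were densest from 250 to 500 bp outside, and gene starts within 250 bp outside. In these rings decile 10 summits lay a median of 762 bp and 471 bp from the nearest gene start, respectively. The offset between the rings was not tested.

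**Figure D2:**
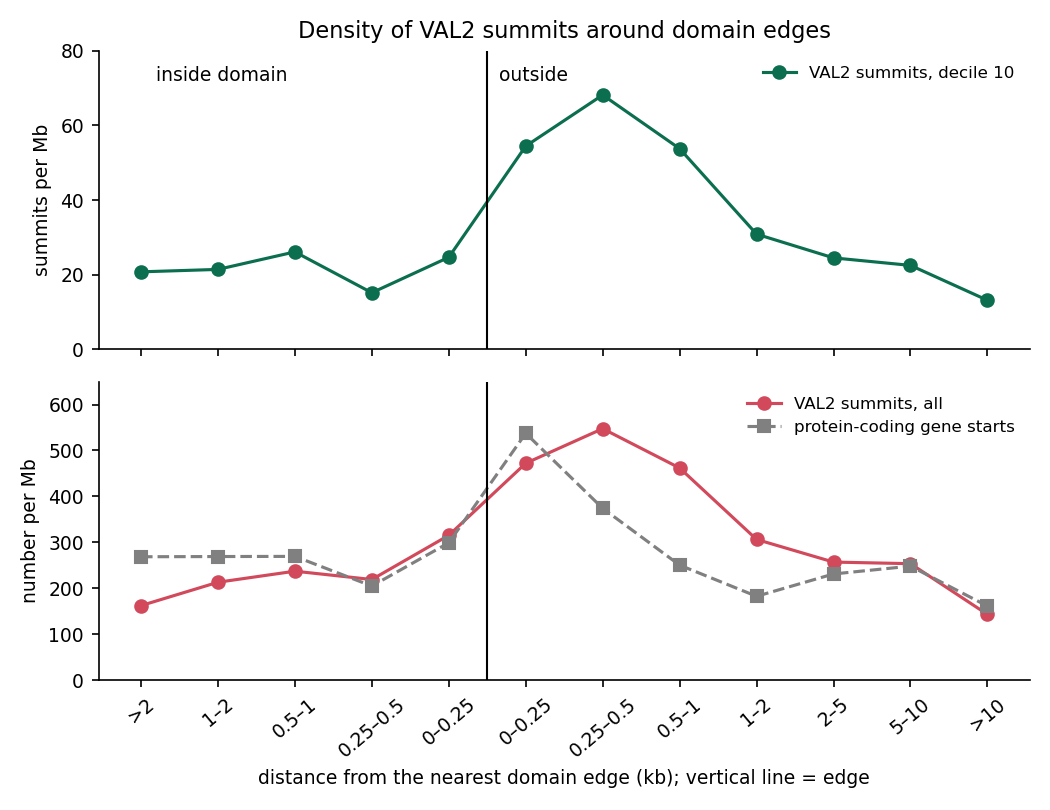
Density of VAL2 summits by distance from the nearest domain edge (x axis, kb, inside left of the line and outside right of it): decile 10 summits per Mb above, all summits and protein-coding gene starts per Mb below. Decile 10 reaches 68.2 per Mb between 250 and 500 bp outside and has at most 26.1 per Mb inside.

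By decile, the share of the outside summits that lay within 1 kb of a domain was 24.8% in decile 1, 27.5% in decile 5 and 32.8% in decile 10. The median distance of outside summits from the nearest edge was 3505 bp in decile 1, 3205 bp in decile 5 and 2440 bp in decile 10. Even so, 16.7% of the outside summits of decile 10 were more than 10 kb from any domain. Inside domains, the median distance to the edge was 462 bp in decile 1 and 632 bp in decile 10. Within domains, all summits together were densest per megabase near the edge, with 315 within 250 bp and 162 to 237 deeper in, and for deciles 1 to 5 the values were 201.06 and 88.2 to 140.4. Scaled to the length of the domain the difference was small. The outermost 20% of the way from edge to centre held 20.6% of those of decile 10, 23.2% of those of deciles 1 to 5 and 22.3% of all, and the innermost 20% held 19.2% of those of decile 10 and 19.6% of all.

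Strong summits just outside an edge that could be given to a gene had a marked gene more often than those farther away. A gene was called marked when domains covered at least 20% of its length, which held for 6979 of 27444 protein-coding genes, or 25.4%. Of the 497 decile 10 summits within 500 bp outside an edge, 339 could be given to a gene, reaching from 1 kb upstream of its start to its end, and 239 of these 339, or 70.5%, had a marked gene. The remaining summits of the 497 lay at no gene, and the domain that marked a gene was not required to be the nearest one. From 500 bp to 1 kb the share of those with a gene was 50.2%, and beyond 1 kb it was 4.01%. Among decile 10 summits inside a domain it was 87.6%. Of the 1493 summits of deciles 1 to 5 within 500 bp outside an edge that had a gene, 909, or 60.9%, had a marked gene. A high share near an edge was thus not particular to strong summits. Since domains and genes near an edge share their position, these shares describe the layout and have no background of their own.

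VAL2 summits inside domains lay farther from gene starts than those outside. No background of positions inside and outside domains was taken for these values. Over all deciles the median distance to the nearest protein-coding gene start was 759 bp inside and 530 bp outside, and 45.1% of the inside summits were upstream of that start, against 57.3% of those outside. Inside, 29.2% of the summits lay in coding exons, against 9.995% outside. The share in coding exons was higher among weak summits. In deciles 1 to 5 it was 36.7% inside and 15.2% outside, and in decile 10 it was 7.42% inside and 1.39% outside. In decile 10 the upstream share was 66.2% inside (61.1% to 71.1%) and 72.1% outside (70.4% to 73.8%), and the median distance was 1074 bp inside and 893 bp outside. Introns held 8.79% of the decile 10 summits inside and 4.24% of those outside.

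Summits of decile 10 stood farther from a gene start and more often upstream of it than the weakest ones. The median distance was 478 bp in decile 1, 464 bp in decile 5 and 907 bp in decile 10, the share within 500 bp of a start was 51.2% in decile 1 and 36.0% in decile 10, and the share upstream was 44.6% in decile 1 and 71.4% in decile 10. In decile 10, 40.1% of the summits inside and 40.1% of those outside lay in no gene and not within 1 kb upstream of one.

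**Figure D3:**
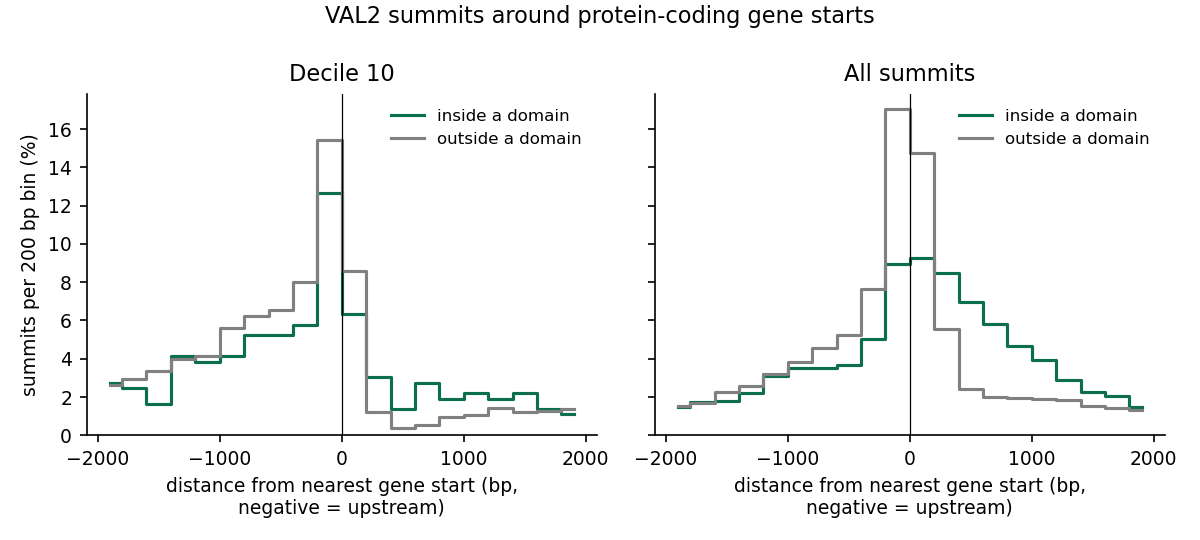
Position of VAL2 summits relative to the nearest protein-coding gene start (x axis, bp, bins of 200 bp; y axis, percent of the summits), inside and outside domains, for decile 10 on the left and all summits on the right. Over all summits, the 200 bp before the start held 8.97% of those inside and 17.0% of those outside, while the inside curve reached farther into the gene, with 6.96% against 2.41% from 400 to 600 bp.

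Counted by gene, genes with any VAL2 summit were marked about as often as all genes, and those with a decile 10 summit more often. A summit lay from 1 kb upstream to the end of 14648 genes, or 53.4% of all, a decile 10 summit at 1861 genes, or 6.78%, and a summit inside a domain at 2337 genes, or 8.52%. Gene starts inside a domain made up 15.7% of all starts. They made up 11.6% of the starts of genes with any VAL2 summit and 20.5% of those without one. For genes whose strongest summit was in decile 10, 14.0% of the starts were inside (12.4% to 15.6%), and 30.5% of the genes were marked, the highest share of any decile. Marked genes made up 23.3% of genes with any summit and 27.9% of genes without one.

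The RY core was commoner at sites inside domains than at those outside in all 10 deciles. Its letters TGCATG were searched on both strands within 100 bp of each summit, and as a background around the points 1 kb to the left and right. An RY core stood at 35.2% of the summits inside domains (flanking windows 10.8%) and at 16.0% of those outside (flanking windows 7.64%). In decile 10 it stood at 81.6% of those inside (77.2% to 85.4%; flanking windows 11.1%) and at 43.2% of those outside (41.3% to 45.1%; flanking windows 8.14%). In decile 1 the shares were 22.2% inside and 7.88% outside, where the flanking windows had 10.9% and 7.12%. Of windows of this size centred 100 bp upstream of the starts of all 27444 protein-coding genes, 6.73% held the core. A match describes the sequence only and does not show that the core is bound.

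Read the other way round, summits with the core lay inside domains more often than those without it in all 10 deciles. Of the 1450 decile 10 summits with an RY core 297, or 20.5%, lay inside a domain, against 67 of the 1581 without one, or 4.24%. In decile 8 the shares were 23.4% with the core and 5.13% without, and in decile 1 they were 37.5% and 15.3%. Within each of these classes decile 10 was no higher than decile 8, while the share of summits that had the core was 19.9% in decile 8 and 47.8% in decile 10. Summits of VAL1 in both lists within 200 bp gave a like split. Decile 10 had 325 of 2019 summits with VAL1 inside, or 16.1%, against 39 of 1012 without it, or 3.85%. With both the core and VAL1 the share was 21.4%, and with neither it was 28 of 901, or 3.11% (2.07% to 4.46%), below the 13.7% of bases in domains.

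The G-box, CACGTG, which bZIP and bHLH factors bind, was commoner at decile 10 summits without VAL1 than at those with it. It stood at 13.9% of the 2019 decile 10 summits with VAL1 in both lists (flanking windows 3.42%) and at 20.1% of the 1012 without it (flanking windows 3.26%). The RY core stood at 66.3% of those with VAL1 and at 10.97% of those without it. Of the 288 decile 10 summits with a G-box and no RY core, 5 lay inside a domain, or 1.74%. By position, the G-box was at 11.8% of the decile 10 summits inside (8.68% to 15.6%) and at 16.5% of those outside (15.1% to 18.0%), and 5.66% of the windows upstream of gene starts held it. A G-box and an RY core can overlap by their shared TG, and then count for both. The telobox AAACCCTA and the repeat GAGAGAGA, sequences linked to Polycomb recruitment in plants, were less common in decile 10 than in decile 1. The telobox was at 4.06% of the decile 1 summits and 1.09% of the decile 10 summits (flanking windows 2.14%), and 3.75% of the windows upstream of gene starts held it. The GA repeat was at 7.90% in decile 1 and 5.05% in decile 10 (flanking windows 3.40%), and at 4.18% upstream of gene starts. Inside domains the intervals of deciles 1 and 10 overlapped for both sequences. The telobox was there at 4.68% and 2.75%, and the GA repeat at 6.03% and 5.49%. Outside domains the telobox was at 3.92% and 0.862%, and the GA repeat at 8.30% and 4.99%.

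**Figure D4:**
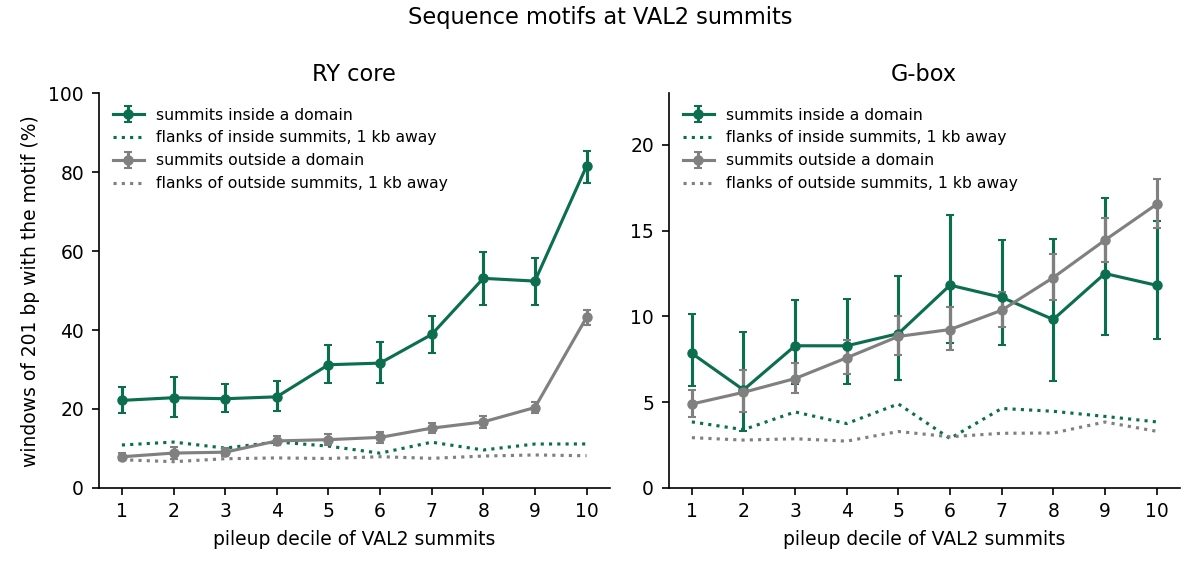
Share of VAL2 summits with, within 100 bp, an RY core (left) or a G-box (right) by pileup decile, inside and outside domains; dotted lines give the windows 1 kb away, and bars are 95% Clopper-Pearson intervals. The RY core is at 81.6% of the decile 10 summits inside and 43.2% of those outside, while the G-box is at 11.8% inside and 16.5% outside, with overlapping intervals.

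VAL1 shared more of the stronger VAL2 sites. A VAL1 summit of both lists lay within 200 bp of 15.1% of the VAL2 summits in decile 1, 24.2% in decile 5 and 66.6% in decile 10. In decile 10 it did so at 89.3% of the summits inside and at 63.5% of those outside.

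The strongest VAL2 summits inside domains stood at genes of varied function. The 20 genes with a symbol that led by pileup had values from 90 to 316. All 20 had VAL1 within 200 bp in both lists, beside 89.3% of all decile 10 summits inside. Of the 20 genes 19 had an RY core, beside 81.6% of those summits, and in 13 it was within 20 bp of the summit. The summit was upstream of the gene in 11, in an intron in 5, in a UTR in 2 and in a coding exon in 2. NAC074, a NAC transcription factor gene, had a pileup of 285 and a fold enrichment of 19.5 in an intron, 1192 bp inside a domain of 5180 bp. PUB18, a U-box ubiquitin ligase gene of abscisic acid signalling, had 213, 57 bp upstream of its start. CLE41, which encodes the precursor of a peptide that keeps vascular stem cells dividing, had 143. OLEO1, an oleosin gene of seed oil bodies, had 134.

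The other leading genes had pileups from 90 to 122. They included CYP72C1, of brassinosteroid inactivation, with 122, IAMT1, which methylates auxin, with 93, NIT4, a nitrilase gene, with 94, the sugar transporter gene AtVEX1 with 101, and UMAMIT36, of a transporter family, with 117. Of transcription factors they included NAC099 with 99, WRKY24 with 97, WRKY75 with 94 and the MADS-box gene AGL15 with 90. The germin gene GER3 had 105, LCR61, which encodes a small cysteine-rich protein, had 121, PGSIP5 had 102 and GLTP2 had 90. MIR5642a, the 1 gene without an RY core, had the highest pileup, 316, but a fold enrichment of 2.07, and lies in the stretch of chromosome 3 named above. RPN1A and SEC3A were not marked themselves, with domain cover of 0% and 8.19%: the domain at RPN1A lay upstream of the gene, and that at SEC3A covered the 3′ end.

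In the val1val2 double mutant 5 of these 20 domains had no H3K27me3 peak in either list. Such domains made up 25.6% of the 332 with a decile 10 summit and 11.1% of all. The 5 were those at LCR61, WRKY75, NIT4, SEC3A and AGL15. WRKY75, a regulator of senescence and phosphate responses, had gene cover of 0% and 0% in the val1val2 lists, against 92.7% and 92.8% in the Col-0 lists. AGL15, which promotes embryonic identity, had 0% and 0% in val1val2, against 86.9% and 90.3% in Col-0. Its summit, at chromosome 5 position 4451039, lay 81 bp upstream of its start and 4 bp inside the edge of the domain. NAC074 had 39.4% and 33.3% in val1val2, against 73.2% and 77.9% in Col-0. GER3 had 79.8% and 82.8% in val1val2, against 93.6% and 94.2% in Col-0. At each of these 4 genes, picked from the 20, both val1val2 values lay below both Col-0 values. The share of all genes with such a split was not counted. CYP72C1 went the other way, with 44.2% and 46.5% in val1val2, against 33.4% and 34.1% in Col-0, and MIR5642a was covered over 100% in all 4 lists.

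The strongest summits of genes far from domains had like sequences. Of the 1793 decile 10 summits more than 1 kb from every domain, 37.5% had an RY core and 58.0% had VAL1 in both lists. The 10 genes with a symbol that led among these summits had pileups from 117 to 172. All 10 genes had an RY core and VAL1 in both lists. They were DRB2, of double-stranded RNA binding, with 172, PTAC9, of plastid nucleoids, with 164, PETC, the Rieske protein of photosynthetic electron transport, with 153, PDLP3, of plasmodesmata, with 145, FIB, a fibrillin of plastids, with 135, the cell cycle gene CYCD3;1 with 130, GRF6 with 123, COX19-2 with 122, the calcium pump gene ACA2 with 120 and the protease gene ftsh3 with 117. None had domain cover over the gene. FIB was the most remote, 31064 bp from a domain.

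Among seed genes, strong VAL2 summits stood at storage and oleosin genes and at the regulators AGL15, DOG1 and ABI3, while LEC1, LEC2 and FUS3 had none. Of 12 seed storage and oleosin genes, 11 were marked, 8 had a VAL2 summit, 5 had a summit inside a domain and 5 had a summit in decile 10, against 25.4%, 53.4%, 8.52% and 6.78% of all genes. The 2S albumin genes SESA1 to SESA4 lie under a single domain of 6918 bp. SESA1 had a pileup of 109, and its summit lay 77 bp upstream of the start and 77 bp outside the domain, whose edge coincides with the start of the gene. SESA3 had 77, SESA4 had 54, and SESA2 had 19. OLEO3 had 59, 114 bp outside its domain, and OLEO1 had 134, 77 bp inside. The summits of SESA1, SESA3, SESA4, OLEO1 and OLEO3 all lay between 62 and 123 bp upstream of the gene start, and each had an RY core, a G-box and a VAL1 summit of both lists close by. SESA3 had gene cover of 0% and 0% in val1val2, against 100% and 100% in Col-0, whereas SESA1 had 100% in all 4 lists. SESA4 had 88.8% and 95.2% in val1val2, against 94.6% and 96.4% in Col-0. OLEO3 had 0% and 0% in val1val2, against 84.5% and 85.4% in Col-0. SESA5, CRU2, OLEO2 and OLEO4 had no VAL2 summit. Of these, OLEO4 had 11.9% and 28.5% in val1val2, against 83.5% and 84.0% in Col-0. OLEO2 had 0% and 0%, against 13.8% and 19.9%. SESA5 and CRU2 kept at least 94.7% in each val1val2 list. Cover was thus lost at genes with and without a VAL2 summit.

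Of 9 seed maturation regulators 7 were marked, 4 had a summit, 2 had one inside a domain and 3 had one in decile 10, beside the same shares of all genes. DOG1, a gene of seed dormancy, had a pileup of 85 at 1746 bp inside its domain and AGL15 had 90. ABI3, a B3 master regulator of seed maturation, had 81 in its 3′ UTR, 495 bp outside the domain that covers 78.6% of it. LEC1, LEC2 and FUS3, the other master regulators of this programme, had no VAL2 summit although they were marked, with domain cover of 26.9%, 96.3% and 100%. BBM had no summit either, with 85.2% cover.

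The flower and meristem genes were all marked and had strong VAL2 summits about as rarely as genes in general, of which 25.4% were marked, 53.4% had a summit, 8.52% had one inside a domain and 6.78% had one in decile 10. Over all marked genes 8.14% had one in decile 10. All 12 floral organ identity genes were marked. Of these 5 had a summit, 2 had one inside a domain and 1 had one in decile 10, AP1, with a pileup of 53 at 210 bp outside its domain and neither an RY core nor VAL1. All 12 meristem and boundary genes were marked, 6 had a summit and 3 had one inside, and the 1 with decile 10, CUC1, had 56 at 1456 bp outside. STM, KNAT1, CLV3, WOX5, AG, SEP3 and AP3 had none. Of 12 flowering time genes 9 were marked, 7 had a summit, 4 had one inside and none was in decile 10. The highest was that of SOC1, a flowering promoter, with a pileup of 45 at 159 bp outside the domain.

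Of all genes 25.4% were marked, 53.4% had a summit, 8.52% had one inside and 6.78% had one in decile 10. The counts of the next lists stand beside these shares, and with so few members each list is only described. Of 5 phase change genes the 2 marked ones each had a summit inside. MIR156A and MIR156C, the precursor genes of the juvenile phase microRNA miR156, had pileups of 33 and 36 with an RY core. Among the 8 auxin genes 7 were marked, 6 had a summit and 3 had one inside, among them YUC4, an auxin synthesis gene, with 46 and the auxin response gene IAA19 with 40. Of 17 Polycomb and VAL genes 3 were marked, 9 had a summit, a share like that of all genes, 1 had one inside and 2 had one in decile 10, VAL1 and VAL2. VAL1 had 96 with a fold enrichment of 6.09 in its 5′ UTR, 710 bp outside a domain, and an RY core. VAL2 had 171 with a fold enrichment of 2.27, 52 bp upstream, without an RY core or VAL1. This is the locus of the tagged gene itself.

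Strong VAL2 summits were also present at genes that are active in every cell. Of 6 housekeeping genes none was marked, 4 had a summit and 3 had one in decile 10, beside 25.4%, 53.4% and 6.78% of all genes. The values were 66 at ACT2, an actin gene, 63 at GAPC1, of glycolysis, and 56 at UBQ10, a polyubiquitin gene. None of these 3 had an RY core or VAL1. Of 6 photosynthesis genes 1 was marked, 5 had a summit, 1 had one inside and 1 had one in decile 10, LHCB1.3, a light-harvesting gene, with 71 and no RY core.

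Gene families differed in how many of their genes had a VAL2 summit inside a domain, and also in how many were marked. A summit inside a domain was found at 22 of 72 WRKY genes (30.6%), 32 of 124 homeobox genes (25.8%), 29 of 133 bHLH genes (21.8%), 23 of 118 NAC genes (19.5%), 31 of 180 MYB genes (17.2%) and 38 of 242 cytochrome P450 genes (15.7%), beside 8.52% of all genes. Marked genes made up 56.9% of the WRKY, 53.2% of the homeobox, 47.4% of the bHLH, 55.1% of the NAC, 52.2% of the MYB and 54.5% of the P450 genes, beside 25.4% of all genes. F-box genes, of which 55.8% were marked, had one at 31 of 652, or 4.75%, and ribosomal protein genes, of which 6.395% were marked, at 3 of 344, or 0.872%. Among marked genes alone, a VAL2 summit was present at 78.0% of the WRKY, 69.8% of the bHLH, 36.9% of the MADS-box and 20.9% of the F-box genes, against 48.8% of all marked genes. These families were picked by words in the annotation and their members are not independent, since many lie in clusters. Of 326 microRNA genes 112 were marked, 87 had a summit, 19 had one inside and 6 had one in decile 10. The shares of protein-coding genes were 25.4%, 53.4%, 8.52% and 6.78%, in the same order. Differences in gene length were not taken into account.

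Seen from the domains, most held no VAL2 summit. A summit lay in 2481 of the 8155 domains, or 30.4%, and 332 domains had one of decile 10. Within 1 kb of a domain or in it there was a summit at 5263 domains, or 64.5%, which left 2892 without any. Domains with a decile 10 summit had a median length of 2730 bp, and those without a summit 1494 bp. Per megabase of domain the number with a decile 10 summit did not rise steadily with length. It was 18.7 in the shortest of 5 length classes, 18.0 in the longest and at most 23.4 between them. The 5 genes under the domains of highest H3K27me3 enrichment with no VAL2 summit within 1 kb were NAC006, SK13, BCP1, EDA41 and PFS2. NAC006 had fold enrichments of 5.62 and 5.77 in the Col-0 lists and val1val2 peaks over 96.1% and 93.2% of its domain, and the other 4 domains were covered over at least 87.6% in each val1val2 list. The domains with the most summits lay at GIK, LOG7 and PDX1.1, with 9 each, and at LAC7 and ZFP5, with 8 each. GIK, which encodes an AT-hook protein, had none above a pileup of 33, while LOG7, a cytokinin activation gene, and ZFP5, a zinc finger gene of trichomes, each had 3 in decile 10.

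H3K27me3 domains with a strong VAL2 summit were more often missing from val1val2. A domain was called absent when no peak of either val1val2 list touched it, which held for 908 of the 8155 domains, or 11.1%. Of the 332 domains with a decile 10 summit 85 were absent, or 25.6% (21.0% to 30.7%). The share was 12.3% for domains whose strongest summit was in deciles 6 to 9, 10.7% for deciles 1 to 5, and 10.2% (9.41% to 11.003%) for domains without a summit. The val1val2 lists covered on average 49.8% and 49.6% of the length of domains with a decile 10 summit, against 79.8% and 79.6% for domains without one. Short domains were absent more often, so the domains were split into 5 length classes of near-equal number. Among domains of 200 to 725 bp, 11 of 14 with a decile 10 summit were absent, or 78.6%, against 26.1% of those without a summit. From 1348 to 2103 bp the shares were 54.0% (34 of 63) with a decile 10 summit and 4.59% without a summit, and from 3189 to 10080 bp they were 4.00% (5 of 125) and 0.647%. The share was higher with a decile 10 summit in all 5 classes. Domains with summits of deciles 1 to 9 only also exceeded those without a summit in all 5 classes. Their shares, from short to long, were 29.6%, 20.4%, 10.2%, 7.33% and 1.91%. Without a summit they were 26.1%, 11.2%, 4.59%, 2.79% and 0.647%. Both val1 and val2 are mutated in this line, and 89.3% of the decile 10 summits inside domains had VAL1 too, so the 2 factors cannot be told apart.

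The loss went with the RY core and also with summits just outside. Of the 288 domains with a decile 10 summit that had an RY core, 28.5% were absent (23.3% to 34.1%), against 3 of 44, or 6.82% (1.43% to 18.7%), where no decile 10 summit had the core. Of the 431 domains with a decile 10 summit within 500 bp outside the edge but none inside, 20.2% were absent (16.5% to 24.3%), against 9.96% of the 7392 domains with neither. The median length was 1494 bp for the 431 domains and 1671.5 bp for the 7392. Neither this comparison nor that by the RY core was split by length. Summit by summit, 31.9% of the inside summits of decile 10 still lay in a domain of val1val2, against 71.3% of those of decile 1. Outside the Col-0 domains, 2.36% of the decile 10 summits (63 of 2667) and 6.53% of those of decile 1 lay in a val1val2 domain.

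**Figure D5:**
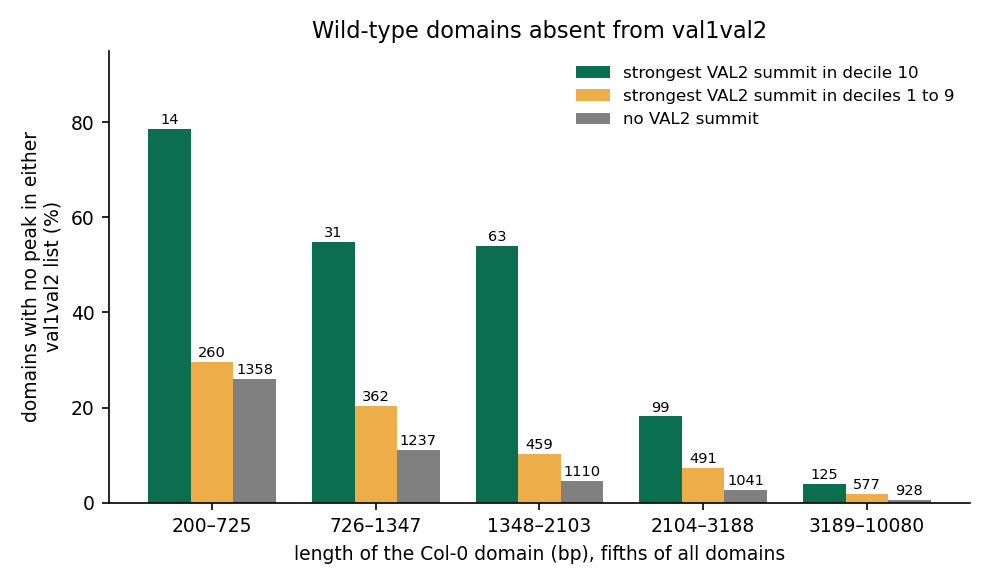
Share of Col-0 H3K27me3 domains with no peak in either val1val2 list (y axis, percent) by domain length class (x axis, bp), for domains with a decile 10 VAL2 summit, with weaker summits only, and with none; numbers above the bars are the domains in each class. With a decile 10 summit the share is the highest of the 3 groups in every length class, 78.6% in the shortest and 4.00% in the longest.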

How the data were processed

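The authors deposited MACS2 peak lists, a tool and a genome build (TAIR10) named in the submitters' processing notes. Neither labels nor file headers name the aligner, the MACS2 version, the control sample or the options, and no read counts were analysed, so depth is unknown. The deposited values are the pileup, a coverage signal at the summit, the fold enrichment ratio over local background, and −log10 p and −log10 q per peak, all the authors' own. The headers of both significance columns are damaged in the deposited lists, so they were read as −log10 p and −log10 q by the MACS2 column order; in the VAL2 and Col-0 lists 0 lines had the q value above the p value. Every limit on q rests on this reading. Peaks were called per sample, as the deposited lists show.

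From these lists each VAL2 line was used as 1 summit, domains were formed from the overlap of both Col-0 lists, and pileup classes kept equal values together. Distances, gene starts, features and sequences came from the RefSeq annotation of TAIR10.1, whose 5 nuclear chromosomes hold every deposited coordinate. A summit belonged to a gene from 1 kb upstream to its end. VAL1 was counted where both VAL1-GFP lists had a summit within 200 bp. Python 3.11.15, pandas 2.3.3, NumPy 2.4.6 and SciPy 1.17.1 were used, and the interval and overlap code was tested on simulated data. Shares have Clopper-Pearson intervals. Named genes were those with a symbol that had the highest pileup inside domains (20) or more than 1 kb away (10), the domains of highest enrichment without VAL2 (5) and those with most summits (5). The members and the gene lists were chosen with earlier results of these data known. Alternatives changed the domain rule, significance limits, summit choice and ranking. The values of 1 listed gene and the sequence at 1 summit are not reported here.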

Additional observations from a re-analysis of the deposited data

How the results depend on the processing

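The 5 values named here were recomputed under other settings, while the edge, gene start, motif, VAL1, family and val1val2 values were not. The share of VAL2 summits inside a domain, 13.1% as reported, was 14.3% to 14.5% when either Col-0 replicate was left out, 15.8% with domains covered in either list, 12.6% with domains of at least 500 bp, 12.3% and 7.24% with Col-0 peaks of −log10 q of at least 2 and 10, 11.4% and 12.4% with VAL2 summits of at least 2 and 10, and 17.9% when summits within 200 bp counted as inside. For decile 10, 12.0% as reported, the values were 13.0% to 14.1% without a Col-0 replicate, 15.0% with either list, 6.47% with Col-0 at 10, 14.5% and 25.4% with VAL2 at 2 and 10, 13.5% with the strongest summit per peak, and 17.5% within 200 bp. For decile 1, 17.6% as reported, they were 18.5% to 18.9%, 19.8%, 10.1% with Col-0 at 10, 12.7% with VAL2 at 10, 14.96% with deciles by fold enrichment, and 22.4% within 200 bp. The share of domains with a summit, 30.4% as reported, was 32.0% to 32.4% without a replicate, 34.1% with either list, 32.8% at 500 bp, 35.03% and 43.3% with Col-0 at 2 and 10, 17.8% and 4.12% with VAL2 at 2 and 10, 25.9% with 1 summit per peak, and 39.8% within 200 bp. Genes with a summit inside, 2337 as reported, numbered 1385 with Col-0 at 10, 1241 with VAL2 at 2 and 232 with VAL2 at 10, and 2523 to 2541 without a replicate. The cause of these shifts was not tested. With VAL2 at 2 and 10 the summits kept were ranked anew. With VAL2 at 10, decile 10 exceeded decile 1. All summits kept there had a pileup of at least 45, so that decile 1 was not the weak class reported. Leaving out decile 10 summits of fold enrichment below 2.5, an alternative chosen after seeing the data, gave 11.9% for decile 10. No paired analysis was possible because there is only 1 VAL2 list and no result comes from a test. Unknown depth limits how far pileup can be compared between lists.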
